A study of Mus musculus with 17 samples.

Results

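Cholesterol synthesis and its control by the SREBP transcription factors were followed through 32 genes in E11 cells, an established mouse podocyte line, grown on silicone with different surface textures. The genes were chosen by name and function, with earlier results of these data known. They were 18 enzymes of the route from acetyl-CoA to cholesterol and 5 SREBP regulators. The sterol carrier Stard4 and 8 genes of fatty acid synthesis and desaturation complete the list. Each symbol matched a single row of the count table of 56748 genes. All 32 were among the 15196 genes that passed a filter on low counts.

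The libraries fall into 3 groups of E11 cells on polydimethylsiloxane (PDMS), a silicone rubber. HF (6 libraries) is a high fractal topography that copies tracings of healthy glomerular histology, RT (6 libraries) is a round topography that is not fractal, and NT (5 libraries) has no topography. RT and NT are the controls for HF in the study's design. All groups share the cell line, and the labels give no further treatment, genotype or culture time. The line is a single source of cells, and what separates the replicates (culture, passage or substrate) is not stated, so the p-values cover only the variation among these libraries, and that variation may be technical.

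Cells make cholesterol from acetyl-CoA by way of mevalonate, isoprenoid diphosphates, squalene and lanosterol. The enzymes of this route are largely controlled together by SREBP-2, the product of Srebf2, while SREBP-1, the product of Srebf1, acts more on genes of fatty acid synthesis. SREBPs are made as precursors in the endoplasmic reticulum, where Scap escorts them to the Golgi for cleavage when sterols are low, and Insig1 and Insig2 hold Scap back when sterols are high. Insig1 is itself an SREBP target. Podocytes are known for lipid rafts that anchor slit diaphragm proteins, and cholesterol accumulation in podocytes is studied in glomerular disease.

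The proximal promoters of 5 members are shown because their genes carry the patterns described here: Hmgcs1, an early enzyme of the route, Cyp51 and Insig1, the members with the largest excess in the library HF 3, Srebf2, and Fasn, the member with the smallest p in HF against NT. Sequences are the 250 bases before the RefSeq start of each gene, 5′ to 3′ on the gene's own strand, with GRCm38.p6 coordinates. Capitals mark matches on either strand to 4 motifs: TCACNCCAC (letters of a sterol regulatory element), CCAAT (the box bound by NF-Y), GGGCGG (the box bound by Sp1) and CACGTG (an E-box).
Hmgcs1, chr13:119690101-119690350, + strand: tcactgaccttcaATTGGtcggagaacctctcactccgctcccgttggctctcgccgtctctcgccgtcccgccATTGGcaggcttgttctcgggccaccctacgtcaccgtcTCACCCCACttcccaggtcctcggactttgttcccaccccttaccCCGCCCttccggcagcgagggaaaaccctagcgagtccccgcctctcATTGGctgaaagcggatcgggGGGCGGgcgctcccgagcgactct
Cyp51, chr5:4104698-4104947, - strand: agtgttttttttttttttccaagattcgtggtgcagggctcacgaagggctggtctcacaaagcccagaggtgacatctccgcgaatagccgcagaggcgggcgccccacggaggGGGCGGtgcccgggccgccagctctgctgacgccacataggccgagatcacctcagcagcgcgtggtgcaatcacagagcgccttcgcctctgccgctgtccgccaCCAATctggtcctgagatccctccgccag
Insig1, chr5:28071162-28071411, + strand: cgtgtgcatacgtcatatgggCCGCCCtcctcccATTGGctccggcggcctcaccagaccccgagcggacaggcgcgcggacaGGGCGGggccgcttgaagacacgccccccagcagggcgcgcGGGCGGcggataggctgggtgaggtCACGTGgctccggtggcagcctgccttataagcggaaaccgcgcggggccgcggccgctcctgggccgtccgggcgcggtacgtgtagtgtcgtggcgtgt
Srebf2, chr15:82147019-82147268, + strand: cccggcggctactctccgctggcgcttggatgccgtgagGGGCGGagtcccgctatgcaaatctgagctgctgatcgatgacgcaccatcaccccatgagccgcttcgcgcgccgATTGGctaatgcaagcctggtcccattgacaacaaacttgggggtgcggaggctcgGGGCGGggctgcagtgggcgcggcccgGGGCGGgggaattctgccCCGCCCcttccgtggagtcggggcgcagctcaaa
Fasn, chr11:120824548-120824797, - strand: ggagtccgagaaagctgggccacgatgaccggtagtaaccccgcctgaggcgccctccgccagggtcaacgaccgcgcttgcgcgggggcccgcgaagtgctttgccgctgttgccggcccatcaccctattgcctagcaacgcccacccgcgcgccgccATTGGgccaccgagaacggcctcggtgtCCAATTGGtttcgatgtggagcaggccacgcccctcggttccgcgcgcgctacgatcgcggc

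Of the 32 members, 25 had at least 1 RefSeq window of 250 bases before to 50 bases after a start (33 windows in all), and Fdps, Fdft1, Sqle, Stard4, Scd1, Scd2 and Fads1 had none. TCACNCCAC stood in 1 of the 33 windows (3.03%), that of Hmgcs1, at position -137 from the start, and in 1.24% of all 32851 windows. CCAAT stood in 21 of the 33 (63.6%), and in 37.4% of all windows. GGGCGG stood in 25 of the 33 (75.8%), and in 35.7% of all windows. CACGTG stood in 6 of the 33 (18.2%), from 5 members (Insig1, Hsd17b7, Dhcr7, Sc5d and Scap), and in 7.15% of all windows. Windows of the same gene can overlap. Those of Scap do, so the same CACGTG site, and the same GGGCGG site, was counted in both. The Insig1 window held 1 CCAAT, 3 GGGCGG and 1 CACGTG, and the Fasn window held 3 CCAAT, of which a pair facing opposite ways overlap as CCAATTGG. Such matches describe letters only, and binding was not measured.

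The data are raw counts of non-directional poly-A libraries, read as pairs of 150 bases. Total counts were 16.2 to 17.8 M in HF, 15.7 to 24.1 M in RT and 14.9 to 18.6 M in NT. Levels are given as CPM, the usual unit of counts scaled to library size, here on totals adjusted by TMM. The podocyte markers Synpo, Wt1, Podxl and Nphs1 were counted in every library, while Ptpro (0 or 1 count per library) was at or near 0. Adipocyte markers, of interest because fat cells carry the same lipogenic genes, summed to at most 0.116 CPM in any library, with Cidec at 0, and hepatocyte markers summed to at most 0.617 CPM, with Ttr at 0. No pair of libraries agreed within sampling noise.

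Several libraries stand apart in these genes, and this bears on every comparison that follows. In HF 3, 28 of the 32 members lay above the HF mean, against 49.9% of all genes tested, and 25 (78.1%) were the highest of the 6 HF libraries, against 17.6% of all genes. In RT 1, 29 lay above the RT mean, against 50.6% of all genes, and 24 (75%) were the highest of the RT libraries, against 20.4%. In HF 6, 18 (56.2%) were the lowest of the HF libraries, against 21.8% of all genes. The summed level of the members was 3922 CPM in HF 3 and 3134 CPM in HF 6, with the other HF libraries between 3314 and 3370 CPM. It was 3867 CPM in RT 1, with the other RT libraries between 3320 and 3568 CPM, and 3221 to 3592 CPM in NT. These libraries were picked out after their values were seen, so no test was made of them. HF 3 had 17.2 M counts, within the range of its group, and RT 1 had the fewest counts of the RT libraries.

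The summed tubular and macrophage markers moved with these libraries, though not every gene in the sums did. The 6 tubular markers summed to 1811 CPM in HF 3 and 1463 CPM in HF 6, with the other HF libraries between 1553 and 1717 CPM, and to 1713 CPM in RT 1, with the other RT libraries between 1521 and 1678 CPM. Among them Aqp1, a water channel, had 339 CPM in HF 3, 180 CPM in HF 6 and 239 to 265 CPM in the other HF libraries, while Slc34a1 was at 0. Cdh16, the most abundant of them, had 1008 CPM in HF 3, below HF 2 and HF 4. It had 922 CPM in HF 6, the lowest of HF, and 970 CPM in RT 1, below RT 4 (1013 CPM). Lrp2 had 460 CPM in both HF 3 and HF 1, 356 CPM in HF 6 and 449 CPM in RT 1, the highest of RT. Cubn was lowest of HF in HF 3 (4.31 CPM) and highest of RT in RT 1 (7.55 CPM). The 4 macrophage markers summed to 55.4 CPM in HF 3 and 41.0 CPM in HF 6, with the other HF libraries between 45.7 and 50.3 CPM. They summed to 59.3 CPM in RT 1, with the other RT libraries between 47.0 and 55.2 CPM. Nearly all of the macrophage sum was Csf1r, with Adgre1 at 0. Cd68 went the other way and was lowest of its group in HF 3 (1.05 CPM) and in RT 1 (0.959 CPM). In HF 6 it was the highest of HF (2.87 CPM). The mesangial and fibroblast sum was also highest of HF in HF 3 (918 CPM, beside 915 CPM in HF 1) and lowest in HF 6 (834 CPM). In RT 1 it was 865 CPM, below RT 6 (894 CPM). The part of these markers in the excess of the members was not tested.

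**Figure D1:**
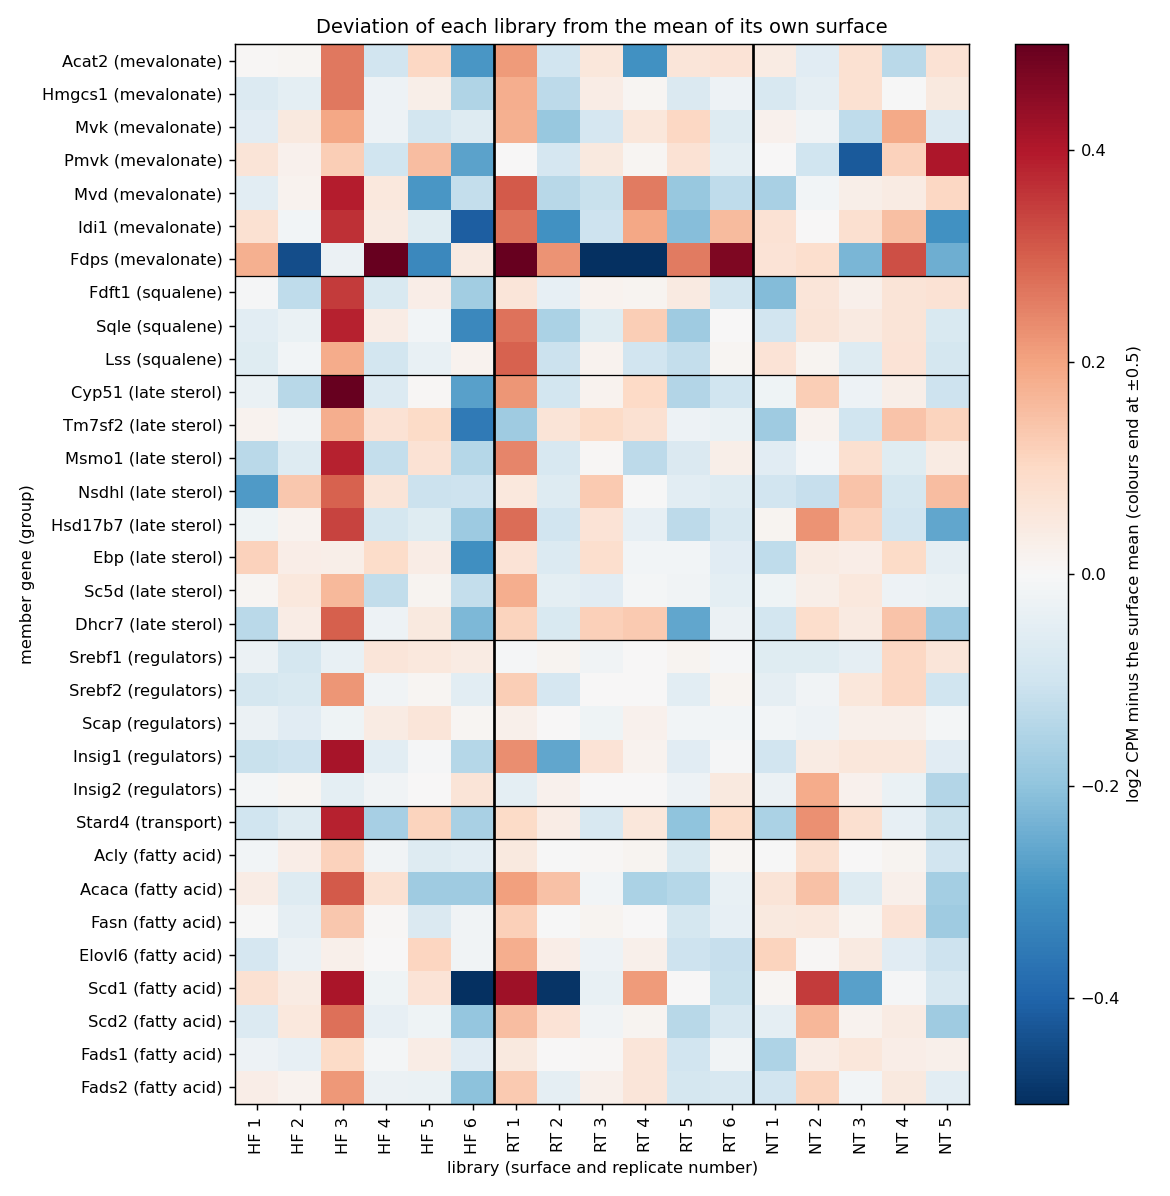
Deviation of each library (columns, HF, RT and NT) from the mean of its own surface for each of the 32 members (rows, ordered by role), as log2 CPM with a prior count of 2. Red is above and blue below the surface mean, and colours end at 0.5 in either direction. HF 3 is red in 28 rows and RT 1 in 29, while HF 6 is blue in most rows.

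By role, the excess of HF 3 over the mean of the other HF libraries had a median of 0.33 (log2) over the 18 sterol enzymes, of which 17 were positive, and of 0.21 over the 8 fatty acid genes, all positive. Over the 5 SREBP regulators its median was -0.03. Among the regulators, Insig1 (0.50) and Srebf2 (0.27) lay above the other HF libraries in HF 3, while Srebf1 (-0.05), Scap (-0.03) and Insig2 (-0.06) did not. The largest excesses in HF 3 were those of Cyp51 (0.61), the lanosterol demethylase, Insig1 (0.50) and the desaturase Scd1 (0.49). Mvd (0.47), Msmo1, Sqle and Stard4 (0.46 each) followed. For RT 1 the median excess over the other RT libraries was 0.24 for sterol enzymes, 0.17 for fatty acid genes and 0.03 for regulators. For HF 6 the medians were -0.21, -0.14 and 0.01. The median over all genes tested was 0.00 or -0.00 in each of these libraries. Related genes of sterol sensing, efflux, storage, isoprenoid branches and lipogenesis that are not members showed a median of 0.04 in HF 3, with 33 of 51 positive.

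**Figure D2:**
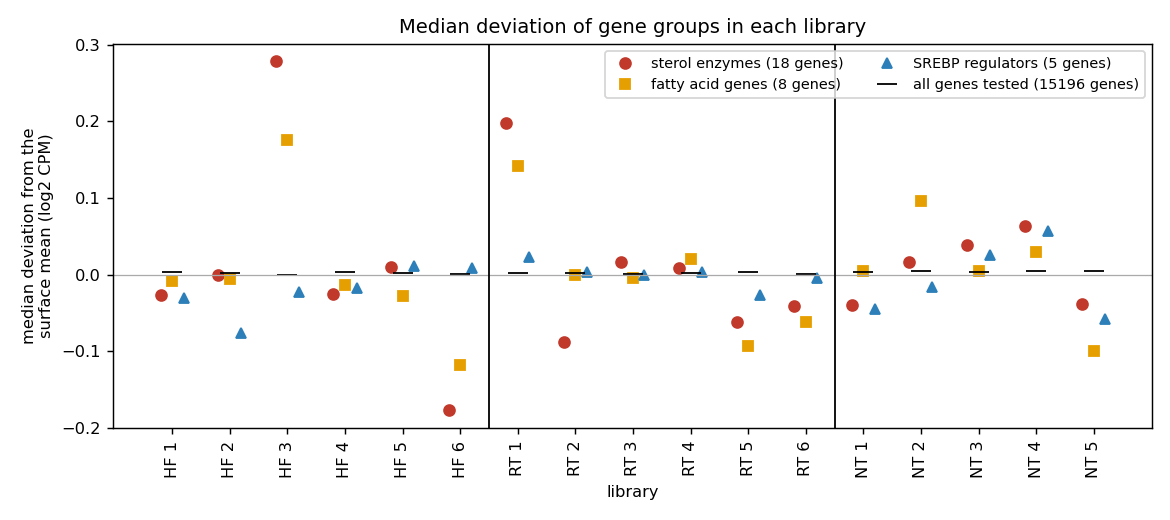
Median deviation from the surface mean (log2 CPM, vertical axis) of 18 sterol enzymes (circles), 8 fatty acid genes (squares), 5 SREBP regulators (triangles) and all genes tested (dashes) in each library (horizontal axis). Sterol enzymes reach 0.28 in HF 3, 0.20 in RT 1 and -0.18 in HF 6, while all genes stay near 0 in every library.

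Members also differed in how much they varied between libraries of the same surface. The SD within surfaces, on the log2 scale, had a median of 0.14 over the 32 members, 0.15 over sterol enzymes, 0.10 over fatty acid genes and 0.07 over regulators. It was 0.12 over all genes tested and 0.08 over the 51 related genes. Scap (0.03) and Srebf1 (0.06) varied least, and Fdps (0.52) and Scd1 (0.29), the members with the fewest counts, varied most. Fdps had only 12 to 55 counts per library.

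Per kilobase of exon, the desaturases Scd2, Fads2 and Fads1 stood highest on each surface. Scd2, which places the double bond of monounsaturated fatty acids, had 138 CPM per kilobase in HF, 148 in RT and 139 in NT. The polyunsaturated fatty acid desaturases followed, Fads2 with 95.1, 100 and 94.6 and Fads1 with 70.6, 71.5 and 72.2 CPM per kilobase in HF, RT and NT. Srebf2 came next, with 36.6, 38.7 and 38.7 CPM per kilobase, beside Acly with 38.5, 39.9 and 38.2, and these neighbours did not differ beyond their spread. Srebf1 had 18.6, 18.7 and 19.0 CPM per kilobase. Gene counts do not separate its isoforms.

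Among sterol enzymes, Hmgcs1 had the highest level per kilobase on each surface (20.6, 22.1 and 21.5 CPM in HF, RT and NT), followed by Sqle (14.8, 16.6 and 15.7). Dhcr7, which carries out the last reduction to cholesterol, had 3.32, 3.44 and 3.22 CPM per kilobase. Scd1, the isoform prominent in liver and fat, had 1.53, 1.33 and 1.37, far below Scd2. Fdps, farnesyl diphosphate synthase, was lowest at 0.422, 0.431 and 0.368. Another gene on the same strand overlaps 26.7% of the exon bases of Fdps, and the authors' counting could leave such reads out, so its level is uncertain.

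**Figure D3:**
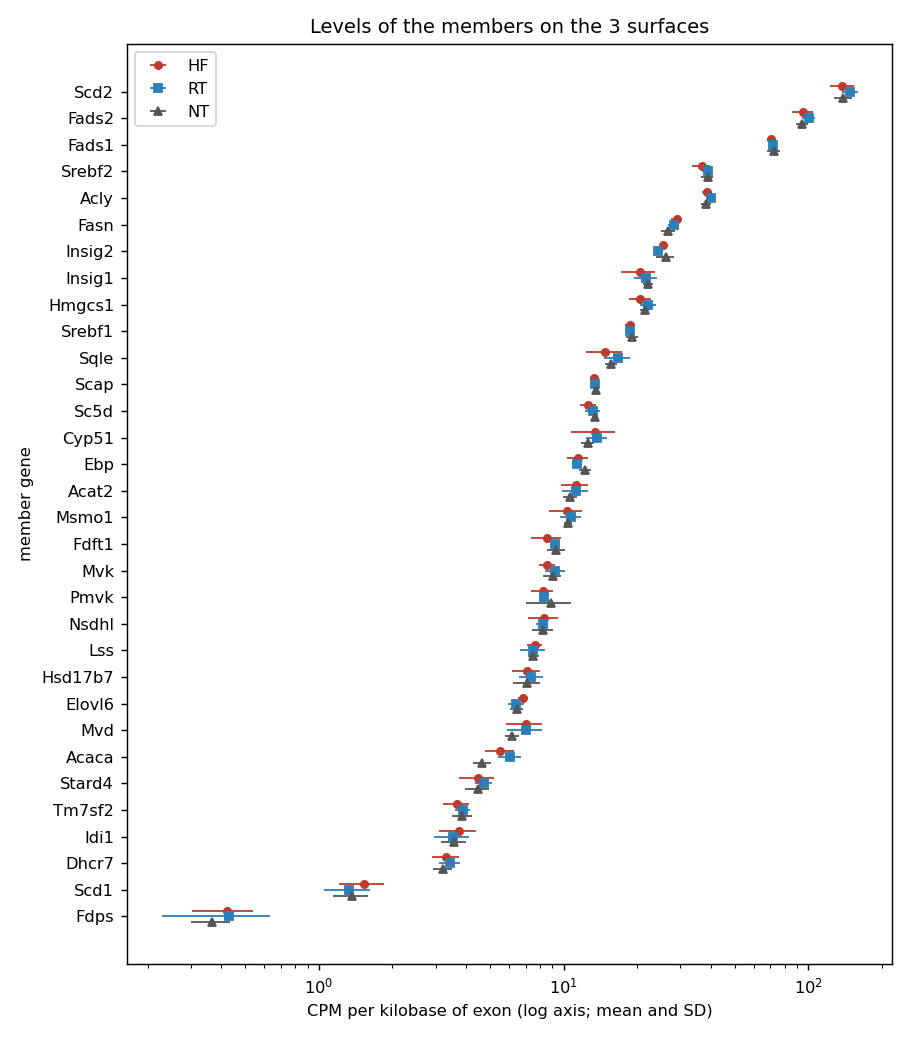
Level of each member (vertical axis, ordered by the mean level) in CPM per kilobase of exon on a log axis, as mean and SD over the libraries of HF (circles, n = 6), RT (squares, n = 6) and NT (triangles, n = 5). Scd2, Fads2 and Fads1 stand highest and Scd1 and Fdps lowest, and the 3 surfaces lie close together in nearly every row.

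HF was compared with NT to ask whether the fractal surface changes this programme relative to flat silicone. No member passed the test in this comparison. The highest log2 fold changes were those of Acaca (0.25), Fdps (0.20), Mvd (0.18) and Scd1 (0.17), and the lowest were those of Fdft1 (-0.13) and Insig1 (-0.12). Fasn, with 0.12, had the smallest p. By edgeR's quasi-likelihood test with Benjamini-Hochberg adjustment over all genes, 0 of 32 members were higher and 0 lower, where 2.33% of all genes tested passed (1.5% higher and 0.829% lower). With limma voom and with DESeq2 the count was also 0. At an unadjusted p under 0.05 by edgeR there were 2 members, Fasn and Acaca, against 14.2% of all genes. Libraries of HF and NT overlapped for all 32 members, while 1.25% of all genes were higher and 0.934% lower with no overlap.

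The median log2 fold change of the members for HF against NT was -0.01, with 15 positive and 17 negative, beside -0.00 over all genes tested. The range ran from -0.13 (Fdft1) to 0.25 (Acaca). The 95% interval of the fold change lay within 1.25-fold either way for 26 of 32 members (81.2%). The share was 84.3% of the 51 related genes and 62.9% of all genes. For 31 members the interval lay within 1.5-fold. The exception at 1.5-fold was Fdps, with an interval of -0.36 to 0.77 (log2).

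Fasn, the fatty acid synthase, had 302 to 349 CPM in HF (median 315) and 302, 303, 294, 306 and 258 CPM in NT. The groups overlapped, the highest HF value was that of HF 3 and the lowest NT value that of NT 5. Its log2 fold change was 0.12 ± 0.04 (SE), with an adjusted p of 0.143 by edgeR. Its side of the threshold depends on the settings: the adjusted p was 0.0376 without the count filter, 0.0233 with the replicate number as a block and 0.334 without HF 3.

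Acaca, the acetyl-CoA carboxylase that supplies malonyl-CoA, had 82.9 to 116 CPM in HF (median 92.8) and 82.9, 87.7, 75.7, 80.6 and 70.3 CPM in NT. Most HF libraries lay above most NT libraries, with overlap at the low end of HF. The log2 fold change was 0.25 ± 0.09, with an adjusted p of 0.221 by edgeR.

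The 18 sterol enzymes split into 8 positive and 10 negative fold changes for HF against NT. Among the 7 genes of the mevalonate route, 4 were positive. Hmgcs1, which forms HMG-CoA, had 84.8 to 113 CPM in HF (median 91.7) and 93.1, 95.4, 104, 98.5 and 102 CPM in NT. The HF range covered the NT range on both sides, and the log2 fold change was -0.06 ± 0.06. Mvd, which decarboxylates mevalonate diphosphate, had 10.5 to 16.9 CPM in HF (median 12.7) and 10.3, 11.4, 11.7, 11.8 and 12.3 CPM in NT, a log2 fold change of 0.18 ± 0.11. The groups overlapped, and its adjusted p was 0.479 by edgeR.

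Fdft1, squalene synthase, had 31.8 to 45.8 CPM in HF (median 34.9) and 33.9, 41.1, 40.1, 41.2 and 41.4 CPM in NT. All HF libraries but HF 3 lay below all NT libraries but NT 1. The log2 fold change was -0.13 ± 0.07, with an adjusted p of 0.416 by edgeR, and it was -0.21 with an adjusted p of 0.0508 without HF 3. Sqle, squalene epoxidase, had 65.0 to 106 CPM in HF (median 80.1) and 81.2, 90.7, 89.6, 90.8 and 82.3 CPM in NT. HF 6 held the lowest and HF 3 the highest value, and the log2 fold change was -0.08 ± 0.11. Sc5d, a late sterol desaturase, had 56.1 to 68.5 CPM in HF (median 61.7) and 64.4, 66.8, 67.9, 64.2 and 63.9 CPM in NT. HF 3 was again the highest HF library, and all other HF libraries lay below every NT library. The log2 fold change of Sc5d was -0.09 ± 0.05, with an adjusted p of 0.386 by edgeR.

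All 5 SREBP regulators had negative fold changes for HF against NT, from -0.12 to -0.03 (log2), and none passed the test. Srebf2 had 247 to 306 CPM in HF (median 256) and 269, 275, 289, 298 and 259 CPM in NT. HF 3 alone lay above the NT range, and the log2 fold change was -0.08 ± 0.05, with an adjusted p of 0.484 by edgeR. Srebf1 had 98.8 to 109 CPM in HF (median 105) and 103, 103, 104, 115 and 112 CPM in NT. The groups overlapped almost throughout, with a log2 fold change of -0.03 ± 0.04. Insig1 had 56.7 to 83.3 CPM in HF (median 59.3) and 64.1, 70.6, 71.3, 71.3 and 65.9 CPM in NT. All HF libraries but HF 3 lay below every NT library. Its log2 fold change was -0.12 ± 0.10, with an adjusted p of 0.645 by edgeR.

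The Insig1 value turned on HF 3. Without that library its log2 fold change was -0.22, with an adjusted p of 0.0574 by edgeR. Without both HF 3 and RT 1, a choice made after the data were seen, it was -0.22 with an adjusted p of 0.0191 by edgeR. Insig1 was then the only member called lower in HF than in NT. Both libraries held the highest Insig1 level of their group (83.3 CPM in HF 3 and 78.6 CPM in RT 1). The call thus follows from the libraries left out and is not separate evidence. The median over all members was -0.05 in each of these fits.

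**Figure D4:**
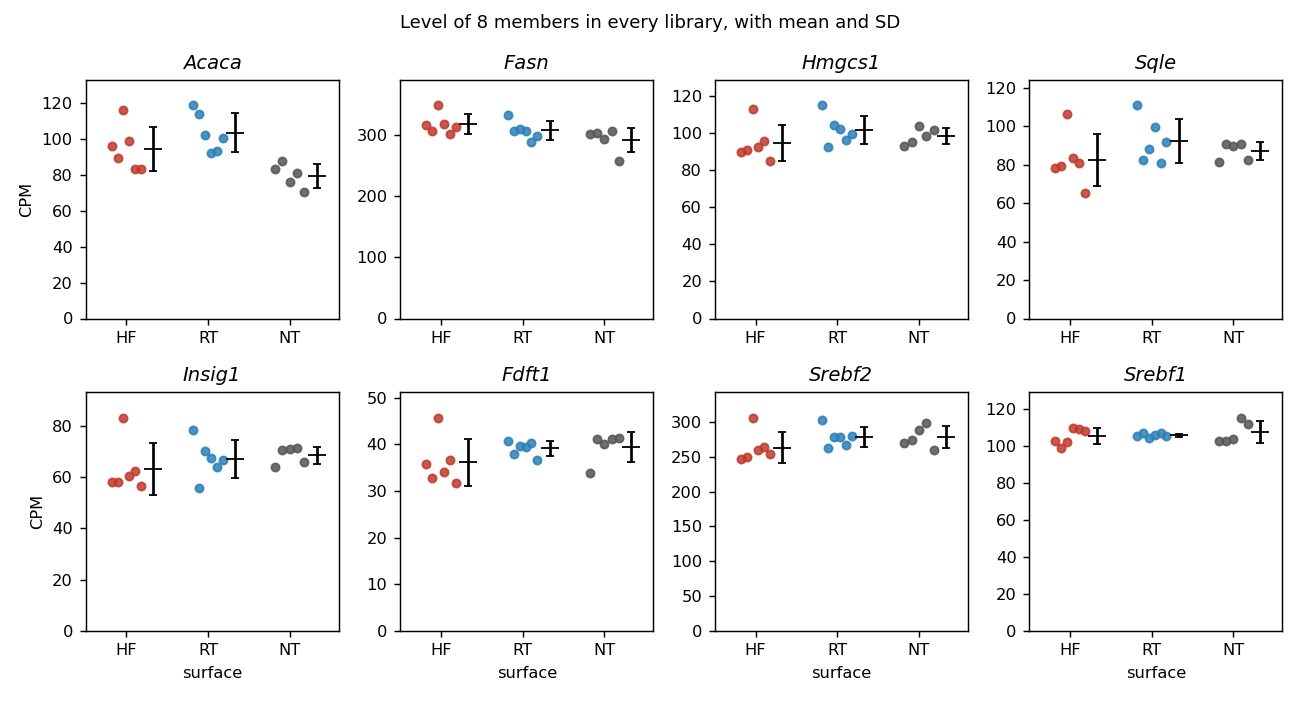
Level in CPM (vertical axes, from 0) of 8 members in every library of HF, RT and NT, with the mean and SD beside the points. For Insig1, Fdft1, Sqle and Srebf2 a single HF point, the library HF 3, stands above the other HF libraries, and for Acaca all RT points lie above all NT points.

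HF was compared with RT to ask what the fractal form adds to a textured surface. No member passed this test either: 0 of 32 were higher and 0 lower by edgeR, where 0.211% of all genes passed (0.132% higher and 0.079% lower), and limma voom and DESeq2 also called 0. No member had an unadjusted p under 0.05, against 8% of all genes. All 32 overlapped between HF and RT, while 0.447% of all genes were higher and 0.52% lower with no overlap. The median log2 fold change of the members was -0.04, with 10 positive and 22 negative, beside -0.00 over all genes. The range ran from -0.16 (Sqle) to 0.20 (Scd1). The 95% interval lay within 1.25-fold for 29 members (90.6%), against 88.2% of the 51 related genes and 66.4% of all genes. It lay within 1.5-fold for all 32 members.

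The smallest p in HF against RT was that of Hmgcs1. It had 84.8 to 113 CPM in HF (median 91.7) and 92.8 to 115 CPM in RT (median 101), and the groups overlapped. The log2 fold change was -0.11 ± 0.06, with an adjusted p of 0.684 by edgeR. Sqle had 65.0 to 106 CPM in HF (median 80.1) and 81.0 to 111 CPM in RT (median 89.8). In each group the highest value was that of the library that stood apart, HF 3 and RT 1, and the log2 fold change was -0.16 ± 0.10. Mvk, mevalonate kinase, had 21.5 to 26.2 CPM in HF (median 22.3) and 21.6 to 27.9 CPM in RT (median 24.6), a log2 fold change of -0.11 ± 0.07. Fdft1 had 31.8 to 45.8 CPM in HF (median 34.9) and 36.7 to 40.8 CPM in RT (median 39.5). All HF libraries but HF 3 (45.8 CPM) lay below every RT library, though HF 5 (36.65 CPM) and RT 6 (36.67 CPM) nearly met. The log2 fold change was -0.12 ± 0.07. It ran from -0.19 to -0.08 over the alternatives and was called in none.

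Srebf2 had 247 to 306 CPM in HF (median 256) and 262 to 302 CPM in RT (median 278), a log2 fold change of -0.08 ± 0.05 with an adjusted p of 0.711 by edgeR. Srebf1 had 98.8 to 109 CPM in HF (median 105) and 104 to 107 CPM in RT (median 105), a log2 fold change of -0.01 ± 0.04. Insig1 had 56.7 to 83.3 CPM in HF (median 59.3) and 55.8 to 78.6 CPM in RT (median 67.1), a log2 fold change of -0.09 ± 0.09. The ranges of these regulators overlapped in each case. On the fatty acid side, Elovl6, which lengthens palmitate, had 41.3 to 47.2 CPM in HF (median 43.5) and 38.0 to 46.7 CPM in RT (median 41.2). Fasn had 302 to 349 CPM in HF (median 315) and 289 to 334 CPM in RT (median 307). The log2 fold changes were 0.09 ± 0.05 for Elovl6 and 0.05 ± 0.04 for Fasn, both with overlapping groups.

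RT was compared with NT to ask what a round texture does without a fractal form. Acaca was higher in RT and was the only member called. By edgeR, 1 of 32 members (3.12%) was higher and 0 lower, where 3.97% of all genes passed (2.53% higher and 1.44% lower). The members' share is thus near that of all genes. At an unadjusted p under 0.05 there were 2 members, Acaca and Insig2, against 17.1% of all genes. The median log2 fold change was 0.02, with 17 positive and 15 negative, beside -0.00 over all genes. The 95% interval lay within 1.25-fold for 27 members (84.4%), against 86.3% of the 51 related genes and 62.5% of all genes.

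Acaca had 92.1 to 118 CPM in RT (median 101) and 82.9, 87.7, 75.7, 80.6 and 70.3 CPM in NT. Every RT library lay above every NT library, as for 2.18% of all genes, and no member lay below, as 1.22% of all genes did. The log2 fold change was 0.38 ± 0.09 (95% interval 0.18 to 0.58), with an adjusted p of 0.0360 by edgeR. The call was lost without RT 1, 2, 3 or 6, or without NT 1, 3, 4 or 5, with adjusted p between 0.0549 and 0.0968. The fold change stayed between 0.33 and 0.41 in all alternatives. HF against RT gave a log2 fold change of -0.13 ± 0.09 for Acaca (95% interval -0.31 to 0.06, adjusted p 0.794 by edgeR), and the HF and RT libraries overlapped. Over the 3 surfaces together, 0 of 32 members passed, where 3.84% of all genes did (2 at an unadjusted p under 0.05, against 16.5% of all genes), and Acaca had the smallest adjusted p, 0.0786 by edgeR. Acaca passed this test by DESeq2 (adjusted p 0.0116), without robust estimation (0.00954), without HF 3 (0.0182) and with the replicate number as a block (0.0325).

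Of the 100-base windows of its transcript, Acaca shares 42.8% with Gm5182, a gene looked up after this call was seen. Gm5182 averaged 19.2 ± 3.94 CPM in HF, 19.7 ± 1.88 CPM in RT and 16.1 ± 2.00 CPM in NT. Its log2 fold change was 0.29 ± 0.11 for RT against NT (adjusted p 0.163 by edgeR), and how reads of the shared stretches were counted was not tested. Other cell type markers moved in the same comparison. The macrophage markers summed to 47.0 to 59.3 CPM in RT and 38.1 to 43.1 CPM in NT. Of these markers 1 of 4 was higher (Csf1r), with Adgre1 at 0 and Ptprc at 0 to 3 counts. Cd68 went the other way, with a log2 fold change of -0.11, and was not called. The mesangial and fibroblast markers summed to 820 to 894 CPM in RT and 693 to 802 CPM in NT, with 1 of 5 higher (Acta2). Acta2 averaged 363 CPM in RT and 261 CPM in NT. Col1a1 (45.9 and 30.1 CPM) and Des (0.567 and 0.354 CPM) also averaged higher in RT. Pdgfrb (457 CPM in RT and 478 CPM in NT) and Pdgfra (0.772 and 0.879 CPM) averaged lower. The tubular markers summed to 1521 to 1713 CPM in RT and 1422 to 1779 CPM in NT, with 0 of 6 called and Slc34a1 at 0. Among the podocyte markers reported here, only Wt1 was called, and it was lower in RT. Podxl and Nphs1 averaged higher in RT (143 and 4.66 CPM) than in NT (131 and 3.96 CPM). Synpo averaged lower (274 CPM in RT and 282 CPM in NT). The part of these differences in the Acaca result was not tested, and in bulk RNA fewer cells of a type and less RNA per cell cannot be told apart.

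The other members with the smallest p in RT against NT did not pass the test. Insig2 had 81.6 to 87.5 CPM in RT (median 84.6) and 88.8, 103, 91.9, 88.6 and 81.7 CPM in NT. All NT libraries but NT 5 lay above all RT libraries, and the log2 fold change was -0.10 ± 0.04, with an adjusted p of 0.190 by edgeR. Without NT 5 it was -0.14 with an adjusted p of 0.0290. Acly, which makes cytosolic acetyl-CoA from citrate, had 200 to 218 CPM in RT (median 212) and 201, 213, 202, 204 and 189 CPM in NT, a log2 fold change of 0.06 ± 0.04. Ebp, a sterol isomerase, had 25.0 to 27.8 CPM in RT (median 26.0) and 25.9, 29.1, 28.9, 30.2 and 27.4 CPM in NT, a log2 fold change of -0.11 ± 0.06. Both genes overlapped between the groups.

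Fasn had 289 to 334 CPM in RT (median 307) and 302, 303, 294, 306 and 258 CPM in NT, a log2 fold change of 0.07 ± 0.04. Mvd had 11.3 to 16.0 CPM in RT (median 11.9) and 10.3, 11.4, 11.7, 11.8 and 12.3 CPM in NT, a log2 fold change of 0.17 ± 0.11. The highest Mvd values in RT were those of RT 1 and RT 4. Hmgcs1, Sqle and Insig1 had log2 fold changes of 0.04 ± 0.06, 0.08 ± 0.11 and -0.03 ± 0.10 for RT against NT. All 5 regulators had negative values, with Srebf2 (-0.00 ± 0.05) closest to 0 and positive under RLE scaling. HF against NT and RT against NT share the NT libraries, so their values are given side by side and not as separate evidence.

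**Figure D5:**
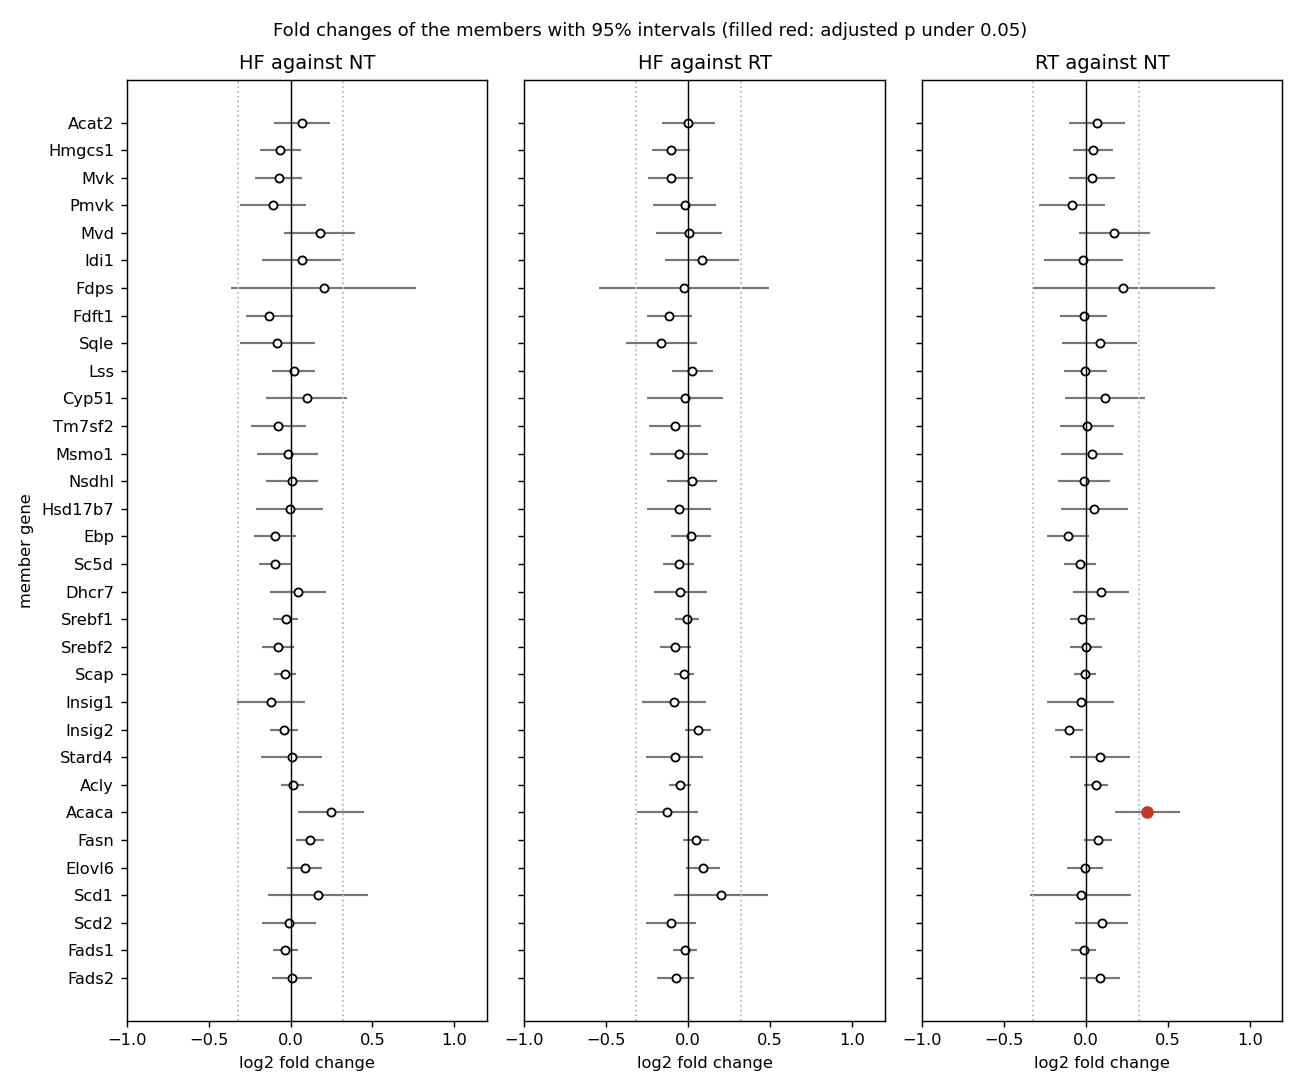
Log2 fold change (horizontal axes) of each member (vertical axis) in 3 panels, with 95% intervals. HF is set against NT on the left and against RT in the middle, and RT against NT on the right. Dotted lines mark 1.25-fold either way and the filled red point marks an adjusted p under 0.05. Acaca in RT against NT is the only filled point, and Fdps has the widest intervals.

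Members not yet given by value are described by their mean and SD. Cyp51 averaged 59.3 ± 12.2 CPM in HF, 60.2 ± 5.98 CPM in RT and 55.4 ± 3.28 CPM in NT, with 83.1 CPM in HF 3. Lss, lanosterol synthase, averaged 82.2 ± 5.80, 81.0 ± 9.34 and 81.1 ± 4.10 CPM in HF, RT and NT. Msmo1, a methyl sterol oxidase, averaged 63.3 ± 9.79, 65.9 ± 6.41 and 64.1 ± 2.68 CPM. Their fold changes lay within 0.12 of 0 (log2) in every comparison. Dhcr7 averaged 19.3 ± 2.49, 20.0 ± 2.05 and 18.7 ± 1.71 CPM, and Idi1, isopentenyl diphosphate isomerase, 13.1 ± 2.26, 12.4 ± 2.03 and 12.5 ± 1.45 CPM. Stard4 averaged 25.0 ± 3.98, 26.4 ± 2.11 and 24.9 ± 2.77 CPM, and Scap 98.7 ± 3.05, 100 ± 1.39 and 101 ± 1.69 CPM. Scap had the narrowest intervals of the members, with log2 fold changes between -0.03 and -0.01 in the 3 comparisons. Scd2, the most abundant member, averaged 753 ± 84.6, 809 ± 58.7 and 757 ± 65.5 CPM. The remaining members, Acat2, Pmvk, Fdps, Tm7sf2, Nsdhl, Hsd17b7, Scd1, Fads1 and Fads2, had adjusted p of 0.506 or more in all comparisons by edgeR. Their estimates were not all near 0: Fdps had a log2 fold change of 0.20 (95% interval -0.36 to 0.77) in HF against NT, and Scd1 one of 0.20 (-0.09 to 0.49) in HF against RT.

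The labels number the replicates (6 is absent in NT), and members were tested for differences by that number with the group in the model. By edgeR, 0 of 32 members passed, where 1.22% of all genes did, with limma voom and DESeq2 also at 0. This depended on the count filter, without which several members passed, as given below. At an unadjusted p under 0.05 there were 7, against 12% of all genes. The 6 smallest adjusted p were 0.153 (Hsd17b7), 0.166 (Fasn), 0.192 (Acat2), 0.405 (Nsdhl), 0.410 (Dhcr7) and 0.410 (Fads2). Hsd17b7, a sterol ketoreductase, ran from 31.6 to 45.3 CPM in HF, 34.2 to 45.5 CPM in RT and 30.1 to 42.2 CPM in NT. Its highest values were in HF 3, RT 1 and NT 2, which carry different numbers. Its lowest were in HF 6, RT 5 and NT 5, of which RT 5 and NT 5 share a number. Over the 32 members, RT 5 was lowest of RT for 12 (against 18.1% of all genes). NT 5 was lowest of NT for 14 (against 26.9%), and HF 5 lowest of HF for 4 (against 15.3%).

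Genes around the pathway were taken as 5 lists of 53 genes, of which 51 were tested. They were SREBP processing and sterol sensing (10 genes), LXR and its targets (7), cholesterol storage and transport (10), other isoprenoid branches (11) and other lipogenic genes (15). In HF against NT, 1 of the 51 was higher (Erlin1), where 1.5% of all genes were, and 0 lower. In HF against RT, 0 were called, with 5 at an unadjusted p under 0.05 by edgeR, against 8% of all genes. In RT against NT, 3 were higher (Acss2, Lipa and Erlin1), where 2.53% of all genes were, and 0 lower, and no gene of the LXR or isoprenoid lists was called in any comparison. The medians over the 51 genes were 0.01 (log2) in the comparison of HF with NT, 0.03 in that of RT with NT and -0.00 in that of HF with RT.

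Acss2, which makes acetyl-CoA from acetate, had 26.2 to 32.9 CPM in RT (median 27.9) and 22.1, 23.6, 21.6, 22.2 and 21.5 CPM in NT. No library overlapped, the log2 fold change was 0.38 ± 0.08 with an adjusted p of 0.00837 by edgeR, and the call was kept in all 20 alternatives. In HF it had 20.6 to 30.5 CPM (median 27.0), a log2 fold change against NT of 0.26 ± 0.09 with an adjusted p of 0.120. Lipa, lysosomal acid lipase, which frees cholesterol from its esters, had 110 to 115 CPM in RT (median 113) and 106, 105, 102, 105 and 91.6 CPM in NT. Its groups did not overlap either, with a log2 fold change of 0.15 ± 0.04 and an adjusted p of 0.0231 by edgeR, which was over 0.05 without RT 4, NT 3 or NT 5.

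Erlin1, an endoplasmic reticulum membrane protein that takes part in sterol-regulated protein degradation, had 34.0 to 38.5 CPM in HF (median 36.4) and 32.6, 29.5, 31.2, 31.9 and 32.9 CPM in NT. In RT it had 33.5 to 37.5 CPM (median 35.7). Neither texture overlapped NT. The log2 fold changes were 0.20 ± 0.05 for HF against NT and 0.17 ± 0.05 for RT against NT, with adjusted p of 0.0239 and 0.0431 by edgeR. The HF call was lost in 7 of 20 alternatives, among them leaving out HF 3, 4 or 5 or NT 2 or 3 (adjusted p up to 0.0845). The RT call was lost in 11 of 20 (adjusted p up to 0.117).

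Other cell type markers also moved in HF against NT. The mesangial and fibroblast markers summed to 834 to 918 CPM in HF and 693 to 802 CPM in NT, and Acta2 was higher with no overlap (log2 fold change 0.48, adjusted p 0.0171 by edgeR). Col1a1, Pdgfra and Des also averaged higher in HF but were not called, while Pdgfrb averaged 478 CPM in both groups. Wt1 was lower in HF than in NT (-0.16, adjusted p 0.0113 by edgeR), with overlapping groups. The podocyte markers Nphs1 (0.35), Synpo (-0.10) and Podxl (-0.05) were not called. The macrophage markers summed to 41.0 to 55.4 CPM in HF and 38.1 to 43.1 CPM in NT, and the tubular markers to 1463 to 1811 CPM in HF and 1422 to 1779 CPM in NT, with none called. The part of these markers, and of those that moved in RT against NT, in the calls of Erlin1, Acss2 and Lipa was not tested.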

How the data were processed

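RNA was measured by poly-A selected, non-directional sequencing in 17 libraries (HF 6, RT 6, NT 5), grouped by the sample titles. The authors deposited raw counts per Ensembl gene, whole numbers with no normalization. Per the submitters' processing notes, CASAVA, HISAT2 2.0.5, featureCounts 1.5.0-p3 and the build GRCm39 were used; annotation release, strand setting and filters are not given in the sources used here. All columns were used.

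Symbols (for 52073 of 56748 genes), exon lengths and overlaps came from GENCODE M21 on GRCm38, so no gene positions from the counts' build are printed. Promoter windows came from the RefSeq table for GRCm38.p6. In non-directional libraries reads of overlapping genes on opposite strands cannot be told apart: for 4 members (Hmgcs1, Idi1, Fdft1, Scap) over 5% of exon bases lie opposite another gene. In all, 7 members share over 5% of their 100-base transcript windows with another gene, which could split their counts (Acaca 42.8%, Acat2 35.3%, Idi1 27.6%, Fdft1 21.5%, Hmgcs1 10.8%, Scap 7.22%, Fdps 6.69%), and 19 share none.

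Counts were filtered with filterByExpr (15196 genes kept), normalized by TMM and modelled in edgeR 4.0.16 (quasi-likelihood F test, robust, 3 group means in 1 fit, no covariate) under R 4.3.3. Two-sided p-values carry a Benjamini-Hochberg adjustment across every tested gene, threshold 0.05. SE is the log2 fold change over the square root of F. CPM are on TMM-scaled totals, and deviations use log2 CPM with a prior count of 2. Intervals cover the spread between libraries. The script was tested on simulated data. Alternatives were RLE and upper quartile scaling, no count filter, no robust estimation, the replicate number as a block, only the groups compared, limma 3.58.1 voom, DESeq2 1.42.0 and each library left out; leaving out HF 3 and RT 1 together was added after seeing the data.

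The members and lists were chosen with earlier results of these data known. Values in every library were given for called members, for up to 6 members with the smallest p per comparison, and for Srebf1, Srebf2, Insig1, Hmgcs1, Sqle and Fasn, and related genes were named where called. Cyp51 and other members in HF 3 were singled out after their values were seen. Further enzymes of the route, genes of LDL uptake outside the members and some podocyte markers are not reported here.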

Additional observations from a re-analysis of the deposited data

Results flagged for a closer look

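For each member and surface, the highest or lowest library was set against the others by Dixon's criterion, and 14 of 96 groups of libraries had a value farther out than its 95% limit. Chance gives about 1 in 20 such groups, and the members share libraries, so the groups are not independent. In HF, the library HF 3 was highest and stood apart for 8 genes. These were Fdft1 at 45.8 CPM (next library 36.7), Lss at 93.3 CPM (next 83.0), Cyp51 at 83.1 CPM (next 58.7), Msmo1 at 82.1 CPM (next 66.0) and Hsd17b7 at 45.3 CPM (next 36.3). The others were Srebf2 at 306 CPM (next 265), Insig1 at 83.3 CPM (next 62.3) and Fasn at 349 CPM (next 319). HF 6 stood apart at the low end for Ebp, at 21.3 CPM (next 27.0).

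In RT, the library RT 1 was highest and stood apart for Lss, at 98.9 CPM (next 81.5), and Sc5d, at 72.5 CPM (next 63.4). In NT, NT 1 stood apart at the low end for Fdft1, at 33.9 CPM (next 40.1), and Fads1, at 311 CPM (next 353), and NT 5 for Fasn, at 258 CPM (next 294). The summed tubular and macrophage markers were highest of their group in HF 3 and RT 1 and lowest of HF in HF 6, as given above, and their part in these values was not tested.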

How the results depend on the processing

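Members called higher in HF than in NT were 1 (Fasn) rather than 0 without the count filter (adjusted p 0.0376). Members called lower there were 1 (Insig1) without both HF 3 and RT 1. Members called higher in RT than in NT ranged from 0 to 1 over the fits that left out 1 library (Acaca adjusted p 0.0307 to 0.0968), and members lower from 0 to 1 (Insig2 without NT 5). Members differing over the 3 surfaces were 1 (Acaca) without robust estimation and 1 (Acaca) by DESeq2, and 0 to 3 with 1 library left out (Fdft1, Insig1 and Acaca without HF 3). Members differing by replicate number were 8 of 32 without the count filter, where 2.48% of the 28701 genes then tested differed. These members were Scd2, Acaca, Hsd17b7, Fads2, Msmo1, Hmgcs1, Acat2 and Fasn, with adjusted p from 0.000518 to 0.0481 by edgeR. With 1 library left out, 0 to 1 member differed by replicate number (Acat2 without RT 6). The cause was not tested. Medians of the members stayed within 0.10 (log2) of the reported values in all alternatives.

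The main fit did not pair libraries by replicate number. Same-numbered libraries deviated from their group means with weak correlations, of 0.01 to 0.09 (HF and NT) and -0.01 to 0.07 (HF and RT). For RT and NT they were 0.01 to 0.19, over 0.1 in 2 of 5 pairs. Whether the number marks a shared source was not tested. With the number as a block, 1 of 32 members was higher in HF than in NT (Fasn, adjusted p 0.0233 by edgeR). In that fit 4.19% of all genes were called in either direction. Over the surfaces 2 of 32 differed (Acaca and Fasn), where 6.69% of all genes did. The block raised the genes called from 354 to 637 for HF against NT, 32 to 125 for HF against RT and 603 to 995 for RT against NT.

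Signs turned only for values close to 0. Srebf2 in RT against NT was -0.000155, against 5.56e-05 with RLE, 0.00514 with the block, 0.000153 with DESeq2, and between -0.0272 and 0.0258 with 1 library left out, positive without RT 2 (0.0160), RT 3 (0.000120), RT 5 (0.0110), NT 3 (0.0141) and NT 4 (0.0258). Srebf1 in HF against RT ranged from -0.0202 to 0.00916 with 1 library left out, positive without HF 2 (0.00916) and HF 3 (0.000306), and in RT against NT from -0.0398 to 0.00415, positive without NT 4. Insig1 in RT against NT ranged from -0.0822 to 0.0132 with libraries left out, positive without RT 2 alone.

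Genes called over the whole table moved by over 1.5 times in some settings. For HF against NT, 354 became 549 without the count filter, 564 by DESeq2, 200 in the 2 groups alone, 233 without HF 3 and RT 1, and 202 to 604 with 1 library left out. For HF against RT, 32 became 118, 84, 113, 61 and 14 to 89 in the same settings. For RT against NT, 603 became 365 to 806 with 1 library left out. Over the surfaces, 583 became 883 without the filter, 1016 with the block, 907 by DESeq2 and 362 to 859 with 1 library left out, and by replicate number 185 became 711 without the filter, 123 without robust estimation and 116 to 277. Counts limit Fdps most, at 12 to 55 per library.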
